A study of Homo sapiens with 6 samples.

Results

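Collagens are the triple-helical proteins of the extracellular matrix, and 44 human genes encode their chains under names of the form COL, a number, A and a number. These 44 protein-coding genes were taken by that name from GENCODE release 29 out of the 58735 gene IDs of the files, and all 44 were listed in every library. Messenger RNA was sequenced in 6 libraries labelled NCI-N87, an established cell line of human gastric carcinoma. The groups were KRT17 knockout cells named KO1 (2 libraries), KRT17 knockout cells named KO2 (2 libraries) and wild-type cells (WT, 2 libraries). No treatment or time point is given. The series title links keratin 17 to E-cadherin loss in diffuse gastric cancer. The labels do not say whether KO1 and KO2 are guides, clones or pools, nor whether replicates came from separate cultures, so p-values reflect a library-to-library spread that could be technical only.

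Each collagen is a trimer of chains that are hydroxylated and folded in the endoplasmic reticulum, secreted, trimmed of their propeptides and cross-linked outside the cell. Fibrillar collagens (types I, II, III, V, XI, XXIV and XXVII) form striated fibrils and are typical of connective tissue, type IV forms the sheet of basement membranes, type VI forms beaded filaments, and type VII forms the anchoring fibrils that hang the basement membrane of skin and mucosa on the stroma. FACIT collagens sit on the surface of fibrils, transmembrane collagens span the plasma membrane, and multiplexins are basement membrane collagens with long glycosaminoglycan-bearing ends. In the stomach, fibroblasts make most of the fibrillar collagen, while epithelial cells contribute basement membrane and anchoring chains.

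Stretches of DNA before gene starts are shown because they belong to the genes that changed most or that changed in pairs. All are from RefSeq on GRCh38.p14, written 5′ to 3′ in lower case, and capitals mark every match on either strand to the CCAAT box (those letters), the GC box (letters GGGCGG) or the TATA box (letters TATAAA). The 6 type IV genes lie in 3 head-to-head pairs, each pair starting from a shared interval on opposite strands. The starts of COL4A1 and COL4A2 on chromosome 13 have 126 bases between them, those of COL4A4 and COL4A3 on chromosome 2 have 135, and those of COL4A6 and COL4A5 on chromosome X have 379. The first and second intervals are printed whole (chr13:110307158-110307283 and chr2:227164489-227164623, plus strand), and the last as the 250 bases before COL4A5 (chrX:108439588-108439837, plus strand). The 250 bases before COL5A1 (chr9:134641553-134641802, plus strand) and before COL7A1 (chr3:48595330-48595579, minus strand) belong to the genes with the highest knockout levels.
COL4A1/COL4A2 interval: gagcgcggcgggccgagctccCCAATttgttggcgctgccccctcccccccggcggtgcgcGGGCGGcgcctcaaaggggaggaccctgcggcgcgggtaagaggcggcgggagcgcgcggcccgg
COL4A4/COL4A3 interval: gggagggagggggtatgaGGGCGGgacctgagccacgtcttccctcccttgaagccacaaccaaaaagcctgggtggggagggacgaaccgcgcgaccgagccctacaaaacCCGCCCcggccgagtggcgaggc
COL4A6/COL4A5 interval: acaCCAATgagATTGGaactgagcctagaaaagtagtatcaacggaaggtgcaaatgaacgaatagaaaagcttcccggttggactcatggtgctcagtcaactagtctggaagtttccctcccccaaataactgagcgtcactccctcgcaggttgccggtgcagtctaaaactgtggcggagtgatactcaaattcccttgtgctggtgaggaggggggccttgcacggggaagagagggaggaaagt
COL5A1 upstream: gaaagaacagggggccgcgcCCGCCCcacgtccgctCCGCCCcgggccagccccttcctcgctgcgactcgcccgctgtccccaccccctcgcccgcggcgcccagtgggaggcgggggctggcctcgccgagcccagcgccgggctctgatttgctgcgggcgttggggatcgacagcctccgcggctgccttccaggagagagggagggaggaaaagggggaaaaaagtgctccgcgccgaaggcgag
COL7A1 upstream: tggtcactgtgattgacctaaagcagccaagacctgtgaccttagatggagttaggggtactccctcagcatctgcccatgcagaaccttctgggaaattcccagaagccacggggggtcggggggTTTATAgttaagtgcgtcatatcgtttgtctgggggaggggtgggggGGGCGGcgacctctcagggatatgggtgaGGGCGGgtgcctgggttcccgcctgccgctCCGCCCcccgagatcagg

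The COL4A1 and COL4A2 interval held 20 CpG dinucleotides and was 80.2% G or C, with 1 CCAAT and 1 GC box. The COL4A4 and COL4A3 interval was 68.1% G or C with 2 GC boxes, and the COL4A6 and COL4A5 stretch was 51.2% G or C with 2 CCAAT boxes. The COL5A1 stretch had 2 GC boxes and 29 CpG dinucleotides, and the COL7A1 stretch had 3 GC boxes and 1 TATA box. RefSeq windows (250 bases before to 50 after a start) could be matched for 32 of the 44 genes, the first listed window of each being used. Of these, 18 held a GC box, 10 a CCAAT box and 5 a TATA box. Among all 35116 windows the shares were 45% for the GC box, 34.6% for the CCAAT box and 11.5% for the TATA box. A match describes these letters and shows no binding.

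The libraries held 17599759 to 22852340 recovered reads, and 1 read in a gene of 1 kb of exon equalled 0.0429 to 0.0544 FPKM (fragments scaled by exon length and sequencing depth). KRT17, the targeted gene, was at 2.35 ± 0.0823 FPKM in KO1, 10.9 ± 0.660 in KO2 and 746 ± 10.1 in WT (SD, n = 2 each). The cells labelled knockout also had far lower levels of several genes that mark the parent line. ERBB2, which NCI-N87 is known to amplify, was at 5.82 ± 0.360 FPKM in KO1, 5.29 ± 0.0233 in KO2 and 1387 ± 46.4 in WT. CDH1 (E-cadherin) was at 0.155, 0.494 and 59.6 FPKM in KO1, KO2 and WT, and EPCAM at 2.91, 3.07 and 186. All 9 gastric epithelial and NCI-N87 markers were lower in both knockout groups (limma, Benjamini-Hochberg adjustment), where 38.6% of all genes tested were lower in KO1 and 39.8% in KO2, and their summed level was 385 to 396 FPKM in KO1 and 325 to 327 in KO2, against 5290 to 5470 in WT. By group mean, 5 of the 9 markers stayed at 1 FPKM or more in KO1 and in KO2. KRT8 was among those, at 196 FPKM in KO1, 166 in KO2 and 1148 in WT. The other markers, CDH1 among them, entered the test through the WT libraries alone, which set their direction. These values leave the identity of the cells labelled knockout in doubt, and the cells are called by their label throughout. What loss of KRT17 contributes to a collagen difference and what any other difference between these cells contributes cannot be told apart.

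Collagen mRNA was far more abundant in the KRT17 knockout cells than in WT cells, and its makeup differed. The summed level of the 44 genes was 436.2 and 435.8 FPKM in KO1 and 373.6 and 366.6 in KO2, against 47.3 and 50.6 in WT. COL5A1 (type V, fibrillar) and COL7A1 (type VII, anchoring fibrils) together made up 68.4% and 68.8% of that sum in KO1 and 60.6% and 60.8% in KO2, against 1.06% and 1.13% in WT. In WT the largest single collagen was COL9A3, a cartilage FACIT chain, at 26.7 and 28.8 FPKM. Of all reads, collagen genes took 0.513% and 0.517% in KO1 and 0.445% and 0.437% in KO2, against 0.0305% and 0.0325% in WT. In such bulk libraries, fewer cells of a type and less RNA per cell cannot be told apart.

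Levels were tested with limma on log2(FPKM + 1), and 18 of the 44 genes reached 1 FPKM in at least 2 libraries and entered the test. The filter lets in a gene that is high in 1 group alone, so the 18 stand for themselves and not for the family. Of the 18, 14 rose and 4 fell in the average of KO1 and KO2 against WT, with the same direction called in KO1 and in KO2 alone. Among all 16046 genes tested, 80.6% were called in the knockout average (40.5% higher and 40.1% lower), 77.8% in KO1 (39.3% higher and 38.6% lower) and 78.9% in KO2 (39.1% higher and 39.8% lower), so a call alone was common among all genes. The median difference of the 18 was 2.30 log2 for the knockout average, beside 0.02 for all genes tested. For all 18, no knockout library overlapped a WT library, as was so for 79.9% of all genes tested (39.9% with all knockout libraries higher and 40% with all lower). In every knockout library 16 collagen genes reached 1 FPKM, and in every WT library 6 did. COL4A5, COL9A3, COL16A1 and COL18A1 did so on both sides, 12 in the knockout libraries alone, and COL17A1 and COL27A1 in the WT libraries alone. For the genes that reached 1 FPKM on 1 side alone, the filter set the direction, and with it the lack of overlap. The counts of 14 and 4, the median and the lack of overlap therefore rest largely on the filter. Of the 4 genes on both sides, COL4A5 and COL16A1 rose and COL9A3 and COL18A1 fell. Log2 differences (± SE) refer to log2(FPKM + 1) and understate the change of low genes. A fold is the ratio of mean FPKM.

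**Figure D1:**
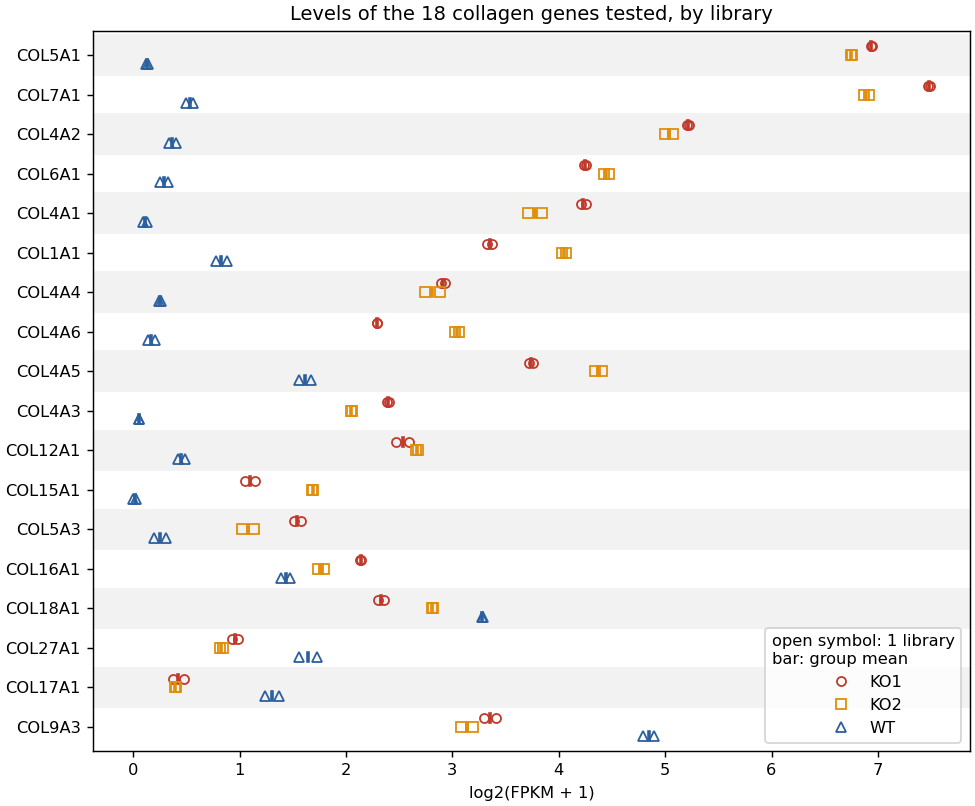
Level of the 18 collagen genes tested on the log2(FPKM + 1) scale, with an open symbol for each library (KO1 circles, KO2 squares, WT triangles) and a bar at each group mean. COL5A1 and COL7A1 stand highest in the knockout libraries, while COL9A3, COL17A1, COL18A1 and COL27A1 are the 4 genes whose WT libraries lie above all knockout libraries.

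Among the fibrillar collagens, chains of types V and I rose and the type XXVII chain fell. COL5A1 (ENSG00000130635, GRCh38 chromosome 9, 134641774 to 134844843, plus strand), whose chain nucleates and limits the width of type I fibrils, had 122 and 121 FPKM in KO1 and 106 and 107 in KO2, against 0.0869 and 0.102 in WT. Every knockout library was far above both WT libraries. The mean was 114 ± 8.70 FPKM (SD, n = 4) in the knockout libraries and 0.0945 ± 0.0108 in WT (n = 2), a 1208-fold difference (6.71 ± 0.02 log2, limma, Benjamini-Hochberg adjusted p = 3.33e-08). COL1A1 (ENSG00000108821, chromosome 17, 50183289 to 50201632, minus strand), the major chain of type I collagen, had 9.37 and 9.05 FPKM in KO1 and 15.4 and 15.7 in KO2, against 0.712 and 0.843 in WT. The knockout mean was 15.9-fold that of WT, with KO2 above KO1 (2.87 ± 0.05 log2, limma, Benjamini-Hochberg adjusted p = 5.69e-07). COL5A3, a less widely expressed type V chain, had 1.85 and 1.97 FPKM in KO1 and 1.19 and 1.03 in KO2, against 0.240 and 0.145 in WT. This was 7.85-fold higher (1.06 ± 0.08 log2, limma, Benjamini-Hochberg adjusted p = 8.94e-05), from levels near the filter, and in KO2 alone the call was lost against a fold of 1.5. COL27A1, a fibrillar chain first known from cartilage, had 0.901 and 0.975 FPKM in KO1 and 0.795 and 0.759 in KO2, against 1.94 and 2.30 in WT. The knockout libraries were all lower (-0.75 ± 0.07 log2, limma, Benjamini-Hochberg adjusted p = 3.29e-04), and the call was lost when tested against a fold of 1.5 (adjusted p = 0.094).

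COL1A2 and COL5A2, partner chains of COL1A1 and COL5A1, stayed under 1 FPKM in every library. COL1A2, which pairs with COL1A1 in ordinary type I collagen, had 8 reads in the 2 KO1 libraries together, 2 in the KO2 libraries and 0 in WT. COL5A2, which pairs with COL5A1, had 0.196 and 0.142 FPKM in KO1 and 0.123 and 0.130 in KO2, against 0.814 and 0.818 in WT. It lay under the filter; in the fit without a filter it was lower in the knockout libraries (-0.66 ± 0.05 log2, limma, Benjamini-Hochberg adjusted p = 6.38e-04). The ratio of COL5A1 to COL5A2 was therefore 625 to 864 in the knockout libraries, against 0.107 and 0.125 in WT, and that of COL5A1 to COL5A3 was 61.4 to 104 in the knockout libraries. COL3A1, the type III chain of soft connective tissue, had 0.277 to 0.404 FPKM in the 4 knockout libraries, against 0 and 0.0160 in WT. From 184 knockout and 2 WT reads the ratio was 43.7, with a 95% exact interval of 11.9 to 363 that covers counting error only.

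**Figure D2:**
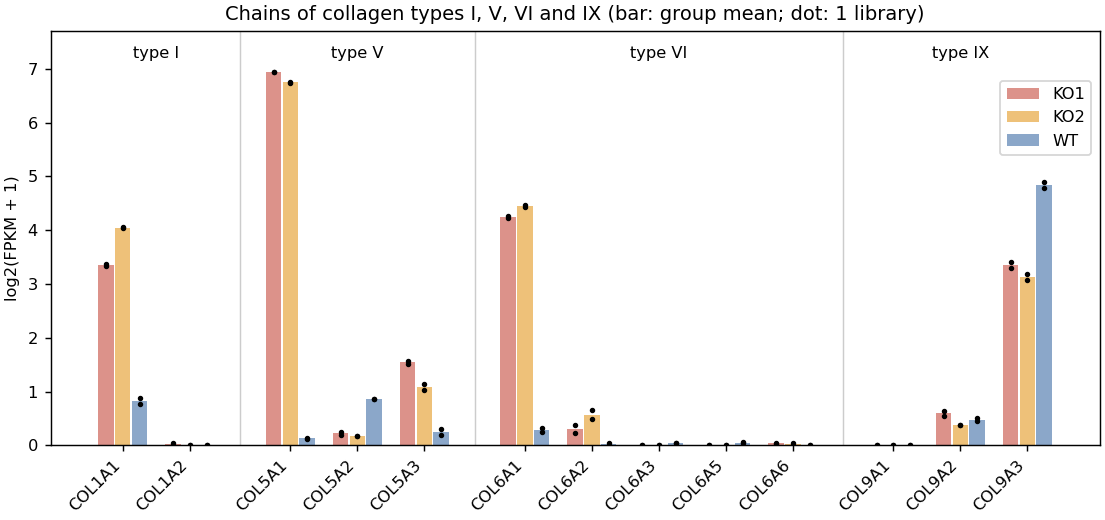
Level of each chain of collagen types I, V, VI and IX on the log2(FPKM + 1) scale, with bars for the group means of KO1, KO2 and WT and a dot for each library. In types I, V and VI 1 chain is high in the knockout libraries (COL1A1, COL5A1, COL6A1) while COL1A2, COL5A2 and COL6A2 stay under 1 FPKM.

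All 6 type IV genes, the network collagens of basement membranes, rose in both knockout groups. Their summed level was 81.7 and 80.2 FPKM in KO1 and 81.8 and 79.6 in KO2, against 2.64 and 2.93 in WT. COL4A1 and COL4A2, which build the trimer found in nearly all basement membranes, rose most. COL4A1 had 18.1 and 17.4 FPKM in KO1 and 13.3 and 12.1 in KO2, against 0.0628 and 0.0960 in WT, a 192-fold difference (3.89 ± 0.05 log2, limma, Benjamini-Hochberg adjusted p = 3.15e-07). COL4A2 had 36.4 and 35.9 FPKM in KO1 and 32.6 and 31.1 in KO2, against 0.259 and 0.319 in WT, a 118-fold difference (4.76 ± 0.04 log2, limma, Benjamini-Hochberg adjusted p = 1.09e-07). For both genes the 3 groups were separate, in the order KO1, KO2, WT from high to low. COL4A3 and COL4A4 join COL4A5 in the trimer of the kidney, lung and inner ear. COL4A3 had 4.21 and 4.30 FPKM in KO1 and 3.14 and 3.15 in KO2, against 0.0406 and 0.0358 in WT (96.8-fold, 2.17 ± 0.05 log2, limma, Benjamini-Hochberg adjusted p = 1.69e-06). COL4A4 had 6.65 and 6.44 FPKM in KO1 and 6.36 and 5.69 in KO2, against 0.179 and 0.1999 in WT (33.1-fold, 2.61 ± 0.06 log2, limma, Benjamini-Hochberg adjusted p = 1.48e-06). Both genes were low in WT (14 reads for COL4A3 and 76 for COL4A4 over the 2 libraries), and for both no knockout library came near a WT library. COL4A5 and COL4A6 form the trimer of smooth muscle and some epithelia. COL4A5 had 12.5 and 12.2 FPKM in KO1 and 19.2 and 20.2 in KO2, against 1.95 and 2.17 in WT (7.77-fold, 2.44 ± 0.05 log2, limma, Benjamini-Hochberg adjusted p = 8.84e-07). It was the one type IV gene above 1 FPKM in WT. COL4A6 had 3.90 and 3.90 FPKM in KO1 and 7.15 and 7.36 in KO2, against 0.150 and 0.0997 in WT (44.7-fold, 2.5 ± 0.05 log2, limma, Benjamini-Hochberg adjusted p = 9.98e-07).

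The 2 genes of each head-to-head pair moved in the same direction against WT, with ratios that differed from those in WT. COL4A2 was at 2.02 to 2.56 times COL4A1 in the knockout libraries, against 4.13 and 3.32 times in WT. COL4A4 was at 1.496 to 2.03 times COL4A3, against 4.41 and 5.58 times in WT, and COL4A5 at 2.69 to 3.20 times COL4A6, against 13.01 and 21.8 times. These ratios are per length of all annotated exons. With reads divided by the longest coding transcript instead, COL4A2 was at 2.69 to 3.42 times COL4A1 in the knockout libraries, against 5.50 and 4.43 times in WT. All WT ratios rest on few reads of the lower gene, and their counting error was not estimated. In the WT libraries COL4A1 had 20 and 26 reads, COL4A3 had 8 and 6, and COL4A6 had 30 and 17.

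**Figure D3:**
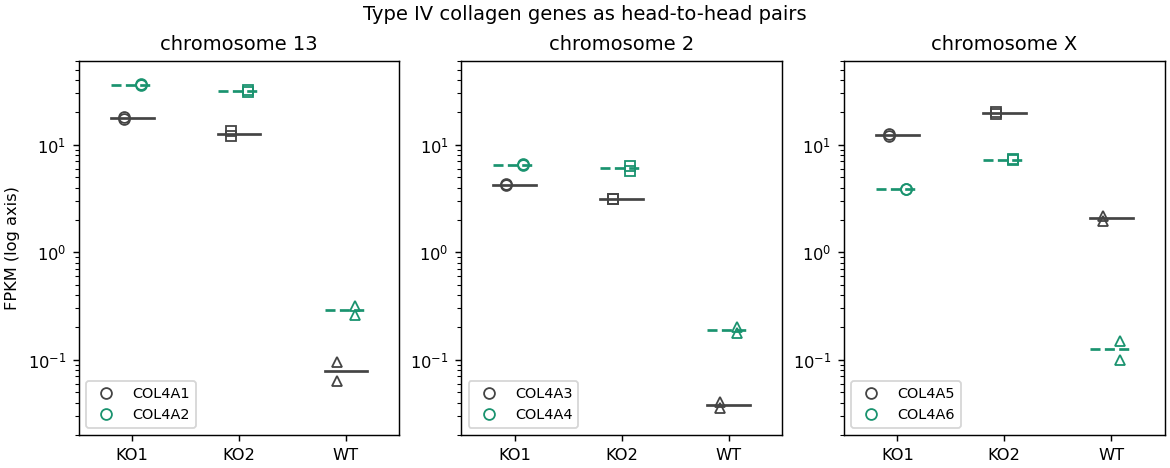
FPKM (log axis) of the type IV genes in KO1, KO2 and WT, 1 panel for each head-to-head pair on chromosomes 13, 2 and X, with a symbol for each library and a line at each group mean. Both genes of every pair are higher in KO1 and KO2 than in WT, and the chromosome X pair is higher in KO2 than in KO1 while COL4A1, COL4A2 and COL4A3 are lower.

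COL7A1 was the most abundant collagen mRNA of the knockout cells. It had 176 and 178 FPKM in KO1 and 120 and 116 in KO2, against 0.414 and 0.472 in WT. The KO1 libraries were highest, the KO2 libraries followed, and WT lay far below. The means were 177 ± 1.52 FPKM in KO1, 118 ± 2.90 in KO2 and 0.443 ± 0.0410 in WT (SD, n = 2 each), 400-fold higher in KO1 and 266-fold higher in KO2 than in WT (6.66 ± 0.03 log2 for their average, limma, Benjamini-Hochberg adjusted p = 4.09e-08). The gene (ENSG00000114270) spans 48564073 to 48595267 on the minus strand of GRCh38 chromosome 3, and its longest coding transcript has 118 exons. COL17A1 (chromosome 10, 104031286 to 104085957, minus strand), a transmembrane collagen of hemidesmosomes, the junctions that tie epithelial cells to the basement membrane above the anchoring fibrils, went the other way. It had 0.394 and 0.293 FPKM in KO1 and 0.318 and 0.313 in KO2, against 1.36 and 1.58 in WT. KO1 and KO2 libraries were interleaved and both lay below WT. The WT mean was 4.47 times the knockout mean (-0.89 ± 0.08 log2, limma, Benjamini-Hochberg adjusted p = 2.13e-04).

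Of the 5 type VI genes, COL6A1 alone reached the filter. It had 17.8 and 18.1 FPKM in KO1 and 21.2 and 20.45 in KO2, against 0.191 and 0.255 in WT, an 87.1-fold difference with no overlap (4.06 ± 0.04 log2, limma, Benjamini-Hochberg adjusted p = 1.75e-07). COL6A2, which joins it in the type VI trimer, had 0.302 and 0.172 FPKM in KO1 and 0.398 and 0.570 in KO2, against 0.0258 and 0.0101 in WT. Its 158 knockout and 4 WT reads gave a ratio of 18.7 (95% exact interval 7.18 to 69.6), and COL6A1 was 35.9 to 106 times COL6A2 in the knockout libraries. COL6A3, the large chain, had 2 reads in KO1 and 2 in KO2, against 24 in WT.

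Among the 10 FACIT genes, 2 of the 3 tested rose and 1 fell. COL12A1, a collagen of the fibril surface in dense connective tissue, had 5.02 and 4.55 FPKM in KO1 and 5.39 and 5.33 in KO2, against 0.341 and 0.397 in WT (13.7-fold, 2.15 ± 0.06 log2, limma, Benjamini-Hochberg adjusted p = 2.49e-06). COL16A1 had 3.37 and 3.42 FPKM in KO1 and 2.45 and 2.32 in KO2, against 1.62 and 1.77 in WT (1.70-fold, 0.52 ± 0.05 log2, limma, Benjamini-Hochberg adjusted p = 3.62e-04). Its call was lost against a fold of 1.5. COL9A3 had 8.85 and 9.60 FPKM in KO1 and 8.15 and 7.44 in KO2, against 26.7 and 28.8 in WT. The WT mean was 3.26 times the knockout mean (-1.60 ± 0.06 log2, limma, Benjamini-Hochberg adjusted p = 6.52e-06). Its partners in cartilage type IX collagen were low throughout. COL9A2 stayed between 0.294 and 0.563 FPKM in the 4 knockout libraries, against 0.362 and 0.426 in WT, and COL9A1 had 1 read in all 6 libraries.

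The 2 multiplexins moved in opposite directions. COL15A1, of the interstitial side of basement membranes, had 1.20 and 1.06 FPKM in KO1 and 2.23 and 2.20 in KO2, against 0 and 0.0164 in WT. From 911 knockout and 2 WT reads the ratio was 216, with a 95% exact interval of 59.7 to 1787 (1.38 ± 0.07 log2, limma, Benjamini-Hochberg adjusted p = 1.91e-05). COL18A1, the source of endostatin, had 3.94 and 4.13 FPKM in KO1 and 6.03 and 6.002 in KO2, against 8.74 and 8.71 in WT (-0.71 ± 0.04 log2, limma, Benjamini-Hochberg adjusted p = 2.12e-05). In KO2 alone the call was lost against a fold of 1.5. Its level is uncertain, because 16.4% of its exon bases overlap SLC19A1 on the opposite strand and no source used here gives the strand setting of the counting. SLC19A1 was at 2.92 to 3.41 FPKM in the knockout libraries, against 3.002 and 3.28 in WT, and was not called (adjusted p = 0.955).

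**Figure D4:**
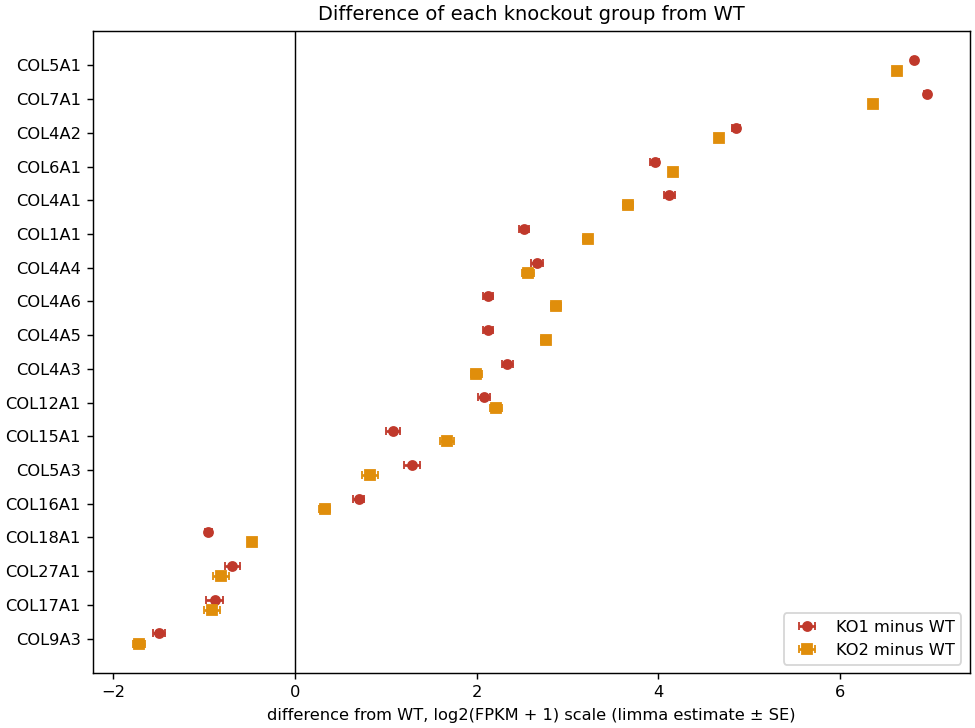
Difference of KO1 (circles) and KO2 (squares) from WT for the 18 collagen genes tested, as the limma estimate ± SE on the log2(FPKM + 1) scale. All 14 genes to the right of 0 and all 4 to the left keep their side in both knockout groups, from 6.95 for COL7A1 in KO1 to -1.71 for COL9A3 in KO2.

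The other 26 genes were not tested, and none exceeded 0.897 FPKM, the highest being COL11A2 in a KO1 library. For 16 of them no library reached 0.1 FPKM, and 5 had at most 10 reads over all 6 libraries. No short-chain network collagen (COL8A1, COL8A2, COL10A1) passed the filter. COL2A1, the main collagen of cartilage, peaked at 0.0257 FPKM. COL22A1, a FACIT of tissue junctions, had 0 reads in the 4 knockout libraries, against 26 reads in WT. In the fit without a filter, 7788 of 36164 genes were called higher in the knockout average and 8802 lower. There 3 more collagen genes were called higher and 1 more lower. These were COL3A1, COL6A2 and COL26A1 (limma, Benjamini-Hochberg adjusted p = 0.00408, 0.0113 and 0.00759) and COL5A2, given above.

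Genes that process collagen were read from lists of 7 kinds. Counts for each list are for the knockout average, where 40.5% of all genes tested were called higher and 40.1% lower. Of the 14 tested hydroxylases, their partners and glycosyltransferases, 11 rose and 2 fell. P3H2 and P3H3 were among the genes under 1 FPKM in WT that passed the filter through knockout libraries alone. The filter set the direction of such genes. P4HA1, the catalytic subunit of the enzyme that hydroxylates prolines for a stable helix, had 57.8 and 57.5 FPKM in KO1 and 59.95 and 59.5 in KO2, against 12.04 and 11.6 in WT (4.97-fold, limma, Benjamini-Hochberg adjusted p = 2.06e-07). Its partner P4HB was at 94.2 ± 0.147 FPKM in KO1, 144 ± 1.15 in KO2 and 106 ± 2.96 in WT, lower in KO1 and higher in KO2. P3H2, a prolyl hydroxylase that acts on type IV collagen, had 22.1 and 21.8 FPKM in KO1 and 22.7 and 23.6 in KO2, against 0.306 and 0.418 in WT, a 62.4-fold difference (limma, Benjamini-Hochberg adjusted p = 2.17e-07). The complex of P3H1, CRTAP and PPIB rose in 2 of its 3 parts. P3H1 was 7.34-fold and CRTAP 6.09-fold higher in the knockout mean, while PPIB was at 77.4 ± 1.42 FPKM in KO1, 79.8 ± 3.39 in KO2 and 79.7 ± 3.48 in WT and was not called (limma, Benjamini-Hochberg adjusted p = 0.661). P3H3 rose 47.5-fold, and its partner P3H4 fell, to 21.5 FPKM in KO1 and 19.8 in KO2, against 46.1 in WT (limma, Benjamini-Hochberg adjusted p = 5.49e-06). P3H4 lies within 1 Mb of KRT17 on chromosome 17 (41801947 to 41812604). There 27 of the 38 tested protein-coding neighbours of KRT17 were lower and 8 higher, beside the shares of all genes given above.

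Of 11 tested genes for folding, export and propeptide removal, 6 rose and 4 fell, beside 40.5% higher and 40.1% lower among all genes tested. PCOLCE, which speeds removal of the C-propeptide, had 39.8 and 40.1 FPKM in KO1 and 40.8 and 40.8 in KO2, against 2.02 and 2.27 in WT (18.8-fold, limma, Benjamini-Hochberg adjusted p = 1.98e-07), and its paralog PCOLCE2 had 0 reads in the knockout libraries, against 4.62 and 3.66 FPKM in WT. The propeptide protease TLL1 was at 9.95 to 11.8 FPKM in the knockout libraries, against 1 read in WT. MIA3 (TANGO1), which loads procollagen into carriers, was 2.10-fold higher (limma, Benjamini-Hochberg adjusted p = 1.28e-05). The list for cross-linking and uptake, which also holds the genes MRC2 and CTSK that do not cross-link, had 2 of 7 tested genes higher and 5 lower. LOXL2, which cross-links type IV collagen, had 25.1 and 26.6 FPKM in KO1 and 27.2 and 25.1 in KO2, against 0.146 and 0.162 in WT (169-fold, limma, Benjamini-Hochberg adjusted p = 2.02e-07), and LOX was 8.91-fold higher. LOXL4 had 2.49 and 1.98 FPKM in KO1 and 0.880 and 1.11 in KO2, against 51.2 and 52.8 in WT (-4.39 ± 0.08 log2, limma, Benjamini-Hochberg adjusted p = 9.63e-07). MRC2, a receptor that takes up collagen, fell, with a WT mean 1.83 times the knockout mean, a call lost against a fold of 1.5. In these 2 lists TLL1, LOXL2 and LOX passed the filter through the knockout libraries alone. PCOLCE2 passed it through the WT libraries alone. The filter thus set the direction of these genes.

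Of 9 collagen receptor genes 4 were tested, 2 higher and 2 lower in the knockout average. In that average 40.5% of all genes tested were higher and 40.1% lower, the shares to set beside every count in this paragraph. ITGA1, an integrin chain that prefers type IV collagen, had 9.15 and 9.11 FPKM in KO1 and 7.60 and 7.73 in KO2, against 3.39 and 3.16 in WT (limma, Benjamini-Hochberg adjusted p = 5.40e-06). ITGA2, which prefers fibrillar collagen, had 10.5 and 10.5 FPKM in KO1 and 4.84 and 5.31 in KO2, against 15.5 and 15.5 in WT (limma, Benjamini-Hochberg adjusted p = 1.15e-05). DDR1, the epithelial receptor kinase for collagen, had a WT mean 1.48 times the knockout mean, and ITGB1, the shared integrin partner, 1.21-fold higher in the knockout mean; both calls were lost against a fold of 1.5. Of 6 tested metalloproteinases and inhibitors, 5 rose and 1 was not called. TIMP3, a matrix-bound inhibitor, was at 17.7 to 18.1 FPKM in the knockout libraries, against 1 read in each WT library. TIMP4, TIMP2 and MMP14, a membrane collagenase, rose 11.0-fold, 3.01-fold and 2.89-fold in that order. Of 11 tested fibril and basement membrane partners, 8 rose and 3 fell. The small proteoglycan LUM was at 28.8 to 31.5 FPKM in the knockout libraries and had 0 reads in WT, and LAMB1 was 4.73-fold higher. Genes of TGF-beta signalling, a known inducer of type I collagen, went both ways, as did all genes tested, with 6 of 12 higher and 6 lower. SMAD4, the shared signal transducer, rose 24.2-fold, while SMAD3 and TGFB2 fell, with WT means 4.97 and 3.75 times the knockout means. TIMP3, TIMP4, LUM and SMAD4 were among the genes under 1 FPKM in WT that passed the filter through knockout libraries alone. The filter set the direction of such genes, which is a limit on the counts of these lists.

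Markers of cells rich in collagen were read beside these results, and their part in them was not tested. Of 10 fibroblast markers 4 were tested and all 4 were higher in the knockout average (LUM, DCN, PDGFRB and S100A4), beside 40.5% of all genes tested. LUM, DCN and PDGFRB were under 1 FPKM in WT and passed the filter through knockout libraries alone. The direction of these genes was thus set by the filter. The list of 10 markers summed to 601 to 604 FPKM in KO1 and 760 to 804 in KO2, against 106 to 110 in WT. S100A4, which carcinoma cells also express, made up most of that sum. PDGFRA had 0 reads in all 6 libraries, THY1 stayed at or under 0.0368 FPKM, and POSTN had 1 read in the knockout libraries and 0 in WT. Chondrocyte markers summed to 5.79 to 6.69 FPKM in KO1 and 5.65 to 6.60 in KO2, against 34.2 to 35.1 in WT, with SOX9 the one tested and lower. Osteoblast markers summed to 0.362 to 0.621 FPKM in KO1 and 0.414 to 0.418 in KO2, against 6.84 to 7.08 in WT. RUNX2, the one tested, was lower and had passed the filter through the WT libraries alone. Endothelial markers summed to at most 0.746 FPKM and leukocyte markers to at most 2.19 FPKM in any library.

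KO1 and KO2 differed from each other in 13 of the 18 genes tested. Relative to KO1, 6 genes were higher in KO2 (COL1A1, COL4A5, COL4A6, COL6A1, COL15A1 and COL18A1) and 7 were lower (COL4A1, COL4A2, COL4A3, COL5A1, COL5A3, COL7A1 and COL16A1). In this comparison 26.2% of all genes tested were called, 11.2% higher and 15% lower. The median over the 18 genes, which went both ways, was -0.11 log2. COL16A1 and COL18A1 differed about as much between KO2 and KO1 (-0.38 and 0.48 log2) as between KO2 and WT (0.33 and -0.47 log2). These comparisons share the KO2 libraries. COL4A6 in KO2 was at 1.86 times its KO1 level (0.75 ± 0.06 log2, limma, Benjamini-Hochberg adjusted p = 0.00151), COL1A1 at 1.69 times (0.70 ± 0.05 log2, limma, Benjamini-Hochberg adjusted p = 0.00162) and COL4A5 was higher by 0.64 ± 0.05 log2 (limma, Benjamini-Hochberg adjusted p = 0.00194). COL15A1 and COL18A1 were higher by 0.59 ± 0.08 and 0.48 ± 0.04 log2. Among the 7 lower genes COL7A1 differed most, with 118 FPKM in KO2 against 177 in KO1 (-0.59 ± 0.03 log2, limma, Benjamini-Hochberg adjusted p = 8.50e-04). COL5A3 was at -0.47 ± 0.09 log2 (limma, Benjamini-Hochberg adjusted p = 0.0187) and COL4A1 at -0.45 ± 0.06 log2 (limma, Benjamini-Hochberg adjusted p = 0.00615). Of the type IV genes, the chromosome X pair was thus higher in KO2 and the chromosome 13 pair lower, while on chromosome 2 COL4A3 was lower (-0.34 ± 0.06 log2, limma, Benjamini-Hochberg adjusted p = 0.0133) and COL4A4 was not called (-0.10 ± 0.07 log2, adjusted p = 0.322). COL9A3, COL12A1, COL17A1 and COL27A1 were not called either. None of the 13 calls held against a fold of 1.5, where 41 of all 16046 genes tested were higher and 88 lower. Otherwise COL1A1, COL4A5, COL4A6, COL7A1, COL15A1 and COL18A1 kept their call under every alternative run, and of the 7 lower genes 1 was still called without KO1 replicate 1 (COL7A1), 2 without KO1 replicate 2 (COL4A1 and COL7A1) and 3 without KO2 replicate 2 (COL4A1, COL5A1 and COL7A1). The call of COL6A1 was lost without any 1 of the 4 knockout libraries.

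Genes near the collagen genes were read for the same comparison. For each collagen gene, 4 to 42 tested protein-coding genes lay within 1 Mb. In KO2 minus KO1, the median difference of these neighbours had the sign of the collagen gene for 13 of 18, and for the knockout average against WT for 9 of 18. The neighbours of a gene pair overlap, and neighbouring collagen genes share them. Among all genes tested 15% were lower in KO2 than in KO1 and 11.2% higher. Around COL5A1, 8 of 11 neighbours were lower in KO2 than in KO1, with a median of -0.41 log2, beside -0.19 ± 0.02 for COL5A1 itself. Around COL4A1 and COL4A2, 6 of 7 neighbours were lower with a median of -0.27. Around COL4A6, 5 of 6 neighbours were higher with a median of 0.39, and around COL4A5, 4 of 7 with a median of 0.31. The neighbours of COL7A1 had a median of 0.00 over 40 genes and those of COL1A1 -0.04 over 30, while the genes themselves differed by -0.59 and 0.70. The part of these regional differences in the collagen differences was not tested. Against WT, neighbour medians lay between -0.96 and 0.97 log2 in the knockout average, beside differences of the collagen genes from -1.60 (COL9A3) to 6.71 (COL5A1). Some collagen genes differed by about as much as their neighbours. COL27A1 was at -0.75 beside a neighbour median of -0.84, with 15 of 17 neighbours lower, and COL17A1 at -0.89 beside -0.58, with 10 of 17 lower. The shares over all genes tested were 40.1% lower and 40.5% higher in the knockout average. The neighbours of COL5A1 had a median of -0.05, and 39 of the 40 neighbours of COL7A1 were higher, with a median of 0.97.

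**Figure D5:**
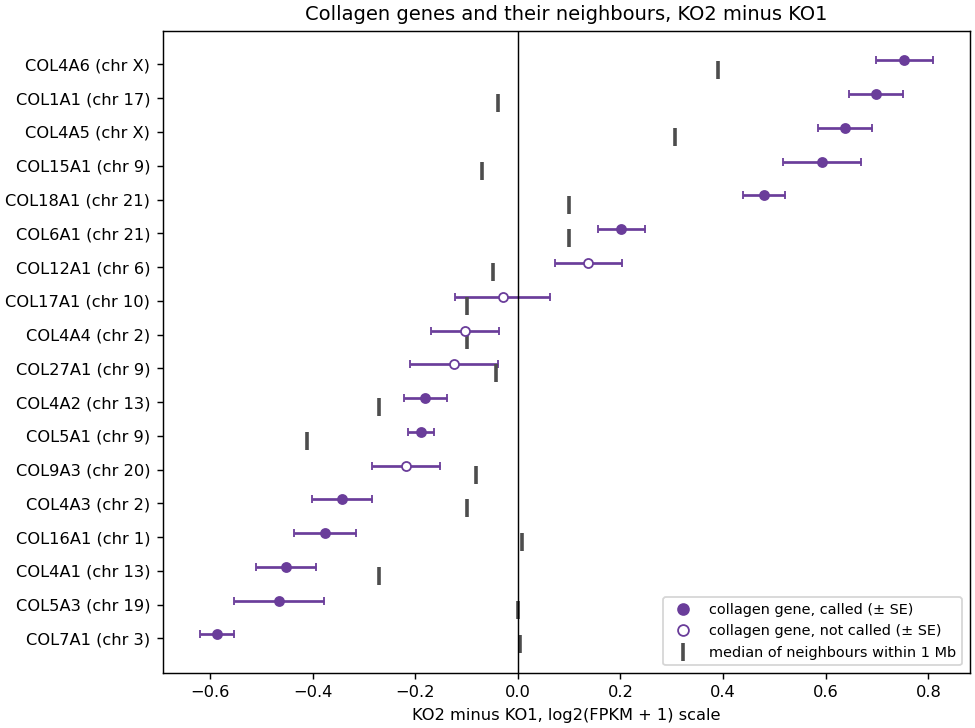
Difference between KO2 and KO1 on the log2(FPKM + 1) scale for the 18 collagen genes tested (circles, limma estimate ± SE, filled where called) and the median of the tested protein-coding genes within 1 Mb of each (bars). COL4A6 and COL1A1 lie farthest to the right and COL7A1 farthest to the left, and the neighbour medians stay between -0.41 and 0.39.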

How the data were processed

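The 6 libraries were 2 each of KO1, KO2 and WT. The authors deposited FPKM values per gene, 1 file for each library. The submitters' processing notes name HISAT2 2.0.5, featureCounts 1.5.0-p3 and the hg38 build; no source used here gives the strand setting, annotation release or handling of multi-mapping reads. Symbols, GRCh38 coordinates and exon lengths came from GENCODE 29, which held all 58735 IDs. FPKM times exon length gave whole reads for 100% of values (tolerance 0.1).

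A gene entered the test with 1 FPKM or more in at least 2 libraries (16046 genes). Tests ran on log2(FPKM + 1) with limma 3.58.1 (R 4.3.3), fitting a mean per group and a variance trend over all 6 libraries, with a call at a Benjamini-Hochberg adjusted p under 0.05 over all 16046. Replicates differed beyond counting error (chi-square per degree of freedom 1.80 in KO1, 2.40 in KO2, 2.46 in WT), so each library counted as 1 replicate. Intervals and read numbers cover counting error only.

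The collagen genes and the gene lists were chosen with earlier results of these data known. Every collagen gene may be named. From each list of other genes, up to 4 with the smallest adjusted p are named, with partners that complete a complex and the label checks KRT17, ERBB2, CDH1 and EPCAM; POSTN, THY1 and PDGFRA are named as defining markers. Some genes that this rule selects are not reported here. Alternatives covered the pseudocount, filter, scaling, voom on recovered reads, replicate block, samples fitted, size of fold, exon overlap and each library left out.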

Additional observations from a re-analysis of the deposited data

How the results depend on the processing

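Against WT, the counts of 14 collagen genes higher and 4 lower in the knockout average, in KO1 and in KO2 did not change with the pseudocount, scaling, voom, the samples fitted or the replicate block, and leaving out each library in turn gave 14 to 14 and 4 to 4. A group left with 1 library was assumed to vary like the other groups. Without a filter the collagen counts were 17 and 5, beside 7788 higher and 8802 lower among 36164 genes in the knockout average. In the main fit the filter set the direction of the members that reached 1 FPKM on 1 side alone. Counting only members with no exon bases shared with another gene left 8 higher and 1 lower for each of these comparisons, and 2 lower in KO2 minus KO1, since fewer members are counted. Against a fold of 1.5, 13 genes were higher and 3 lower in the knockout average and in KO1, and 12 were higher and 2 lower in KO2. Of all 16046 genes tested, 3068 were higher and 3201 lower in the knockout average in that test. In KO1 2950 were higher and 3023 lower, and in KO2 2989 and 3206. The calls of COL16A1 and COL27A1 were lost in all 3 comparisons and those of COL5A3 and COL18A1 in KO2 (limma, Benjamini-Hochberg adjusted p = 0.0527 and 1). In that test 0 were higher and 0 lower in KO2 than in KO1, beside 41 higher and 88 lower among all genes tested. The KO2 minus KO1 counts were less stable. Over all genes tested, calls in that comparison also became fewer whichever library was left out. The 7 lower became 4 with a pseudocount of 0.1, where the cause was not tested, and ranged from 1 to 7 when a library was left out, while the 6 higher ranged from 5 to 6. Calls of COL4A2, COL6A1, COL4A3 and COL5A3 were lost under 11, 9, 6 and 6 alternatives. COL17A1, at -0.03 log2 and not called, changed sign under quantile normalization (0.000566) and without KO1 replicate 1, the values with a library left out running from -0.084 to 0.025. Library size as the only scaling moved the median of all genes in the knockout average to 0.14 log2, and voom to 0.17. Same-numbered replicates did not deviate together (correlations of -0.04, 0.02 and -0.00 over 16046 genes). The labels do not say what same-numbered replicates share, and these correlations cannot tell it. With the replicate block, KO2 minus KO1 had 5 genes higher and 6 lower, and the counts against WT stayed at 14 and 4. At these depths 26 members lay under the filter, 16 of them under 0.1 FPKM in every library.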
